A study of Mus musculus with 48 samples.

Results

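Chromatin accessibility was examined at the genes for 3 interferon regulatory factors, Irf2, Irf4 and Irf8, in tumour-infiltrating CD8 T cells. Of the 53868 accessible regions in the deposited ATAC-seq table, 50 were assigned to these genes, 20 to Irf2, 12 to Irf4 and 18 to Irf8. A region went to the gene whose body it overlapped or, if it overlapped none, to the nearest gene body within 100 kb. Inside the gene bodies lay 11 Irf2, 7 Irf4 and 3 Irf8 regions. Regions are named by the distance of their middle from the first annotated start of the gene. Irf8 +55.4 kb thus lies downstream of the start and Irf4 -12.4 kb lies upstream. ATAC-seq uses the Tn5 transposase to tag open DNA, so every value below is a level of accessibility and not of RNA or protein.

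All groups were Cas9-expressing CD8 T cells of the OT-1 line, whose T cell receptor recognises ovalbumin, marked by CD45.1 and transduced with 1 lentiviral guide RNA and an ametrine reporter. They were transferred into young or aged mice 1 day before injection of B16-OVA, a mouse melanoma line that expresses ovalbumin, and were sorted from the tumours at day 15. The guides gave 3 perturbation groups, labelled Zfp219KO, Dusp5KO and OTC control, and each was sorted by Slamf6 and Tim-3. Tprog (progenitor exhausted) was positive for Slamf6 alone, Ttran (transitory, effector-like) for both, Tterm (terminally exhausted) for Tim-3 alone and Ttad (age-associated dysfunctional) for neither; Ttad was sampled in aged mice only. The 48 libraries formed 21 groups, 15 of 2 libraries and 6 of 3, the latter being the young Ttran and Tterm groups. Each library came from a pool of mice; which mice entered which pool was not given, so p-values measure the spread between these pools. Editing of Zfp219 and Dusp5 cannot be read from accessibility. Aged and young libraries carried separate series of S numbers, and what these numbers stand for was not given. Anything tied to that numbering cannot be told apart from age.

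The aged libraries held 5638413 to 16159054 reads in regions and the young libraries 6589023 to 29942755, and 48 of the 50 regions had at least 3 reads in every library. All 5 CD8 T cell marker genes examined had regions, with summed levels of 7605 to 10792 normalized reads. Among B cell genes Pax5 had regions (280 to 672 per library, highest in Tprog groups), and Cd79a, Cd79b and Ms4a1 had none. Of 7 myeloid and dendritic cell genes Csf1r and Lyz2 had none, and the other 5 summed to 3517 to 4398. Of 6 melanoma genes Tyr and Dct had none, and the other 4 summed to 913 to 1633. Fewer open cells and a weaker signal in each cell cannot be told apart in such pools.

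The interferon regulatory factors share a DNA-binding domain that recognises GAAA repeats, as found in interferon-stimulated response elements. IRF2 is broadly expressed and can oppose IRF1 at interferon-responsive genes. IRF4 is induced by antigen receptor signalling in lymphocytes and binds with BATF and JUN proteins at composite AP-1 sites. IRF8 directs the development of dendritic cells, monocytes and B cells, partners with the ETS factor PU.1, and is also induced in activated CD8 T cells.

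All 3 genes are on the plus strand. In mm10 (GRCm38), Irf2 (gene ID 16363) spans chr8:46739745-46847458, Irf4 (16364) chr13:30749233-30766981 and Irf8 (15900) chr8:120736358-120756694. The 250 bases before the first annotated start of each gene are shown, from the RefSeq table for GRCm38.p6. Each window lies inside or beside the start region whose level is given for every gene. A second annotated Irf8 start, chr8:120738639, lies outside the Irf8 start region. Its window held none of the motifs described below and is not shown. Capitals mark the motif matches described after the sequences.

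Irf2 promoter, chr8:46739495-46739744: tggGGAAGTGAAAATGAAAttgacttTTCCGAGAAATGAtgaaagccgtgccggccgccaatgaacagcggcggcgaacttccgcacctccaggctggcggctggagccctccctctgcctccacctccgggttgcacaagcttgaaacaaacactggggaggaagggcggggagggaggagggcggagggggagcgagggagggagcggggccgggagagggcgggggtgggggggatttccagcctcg

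Irf4 promoter, chr13:30748983-30749232: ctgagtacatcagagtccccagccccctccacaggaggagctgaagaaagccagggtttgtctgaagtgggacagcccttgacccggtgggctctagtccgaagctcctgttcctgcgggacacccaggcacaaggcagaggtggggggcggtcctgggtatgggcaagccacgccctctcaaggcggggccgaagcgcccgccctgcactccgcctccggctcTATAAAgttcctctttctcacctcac

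Irf8 promoter, chr8:120736108-120736357: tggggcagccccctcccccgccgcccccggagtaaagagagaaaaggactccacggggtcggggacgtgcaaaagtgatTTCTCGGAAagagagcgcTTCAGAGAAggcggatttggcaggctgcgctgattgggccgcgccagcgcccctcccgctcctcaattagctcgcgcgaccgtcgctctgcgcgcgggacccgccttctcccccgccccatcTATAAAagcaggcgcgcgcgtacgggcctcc

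The promoters were searched on both strands for GAAA repeated after a gap of 2 bases (the interferon-stimulated response element core), GGAA and GAAA with the same gap (the ETS-IRF composite), TGANTCA (AP-1), GAAATGA, and TGAGTCA or TGACTCA with GAAA after a gap of 4 bases (AP-1-IRF composites). Of these, the Irf2 window held the repeated GAAA, the ETS-IRF composite overlapping it, and GAAATGA, motifs present in 2.98%, 2.3% and 4.64% of 32851 promoter windows of this length. The Irf4 and Irf8 windows held none of the 6; TGANTCA occurred in 6.75% of windows and each gapped composite in 0.0335%. TTCNNNGAA (the STAT site, 7.02% of windows) and TATAAA (12.4%) were added after the sequences were seen. TTCNNNGAA matched the Irf2 window at 1 place, overlapping GAAATGA, and the Irf8 window at 2 places, and TATAAA lay close to the start of Irf4 and of Irf8. A match describes the letters only, and binding was not measured.

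The 3 loci were open in every group, and their start regions were among the 5 of 50 that varied least between group means. The Irf2 start region (+0.6 kb, chr8:46738934-46741759) was its most accessible one, and its highest group mean was 1.36 times its lowest. The same ratio was 1.40 at the Irf4 start region (-0.5 kb, chr13:30747187-30750189) and 1.46 at that of Irf8 (+0.2 kb, chr8:120735746-120737388). The most accessible region of Irf8 lay upstream at -20.2 kb (chr8:120715184-120717074), with a mean of 1587 normalized reads over the 48 libraries. Among distal regions with a mean above 100 normalized reads, the ratios reached 5.98 at Irf8 +55.4 kb (chr8:120791265-120792238), 5.02 at Irf8 +50.7 kb (chr8:120786659-120787377) and 5.01 at Irf4 -12.4 kb (chr13:30736429-30737279).

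**Figure D1:**
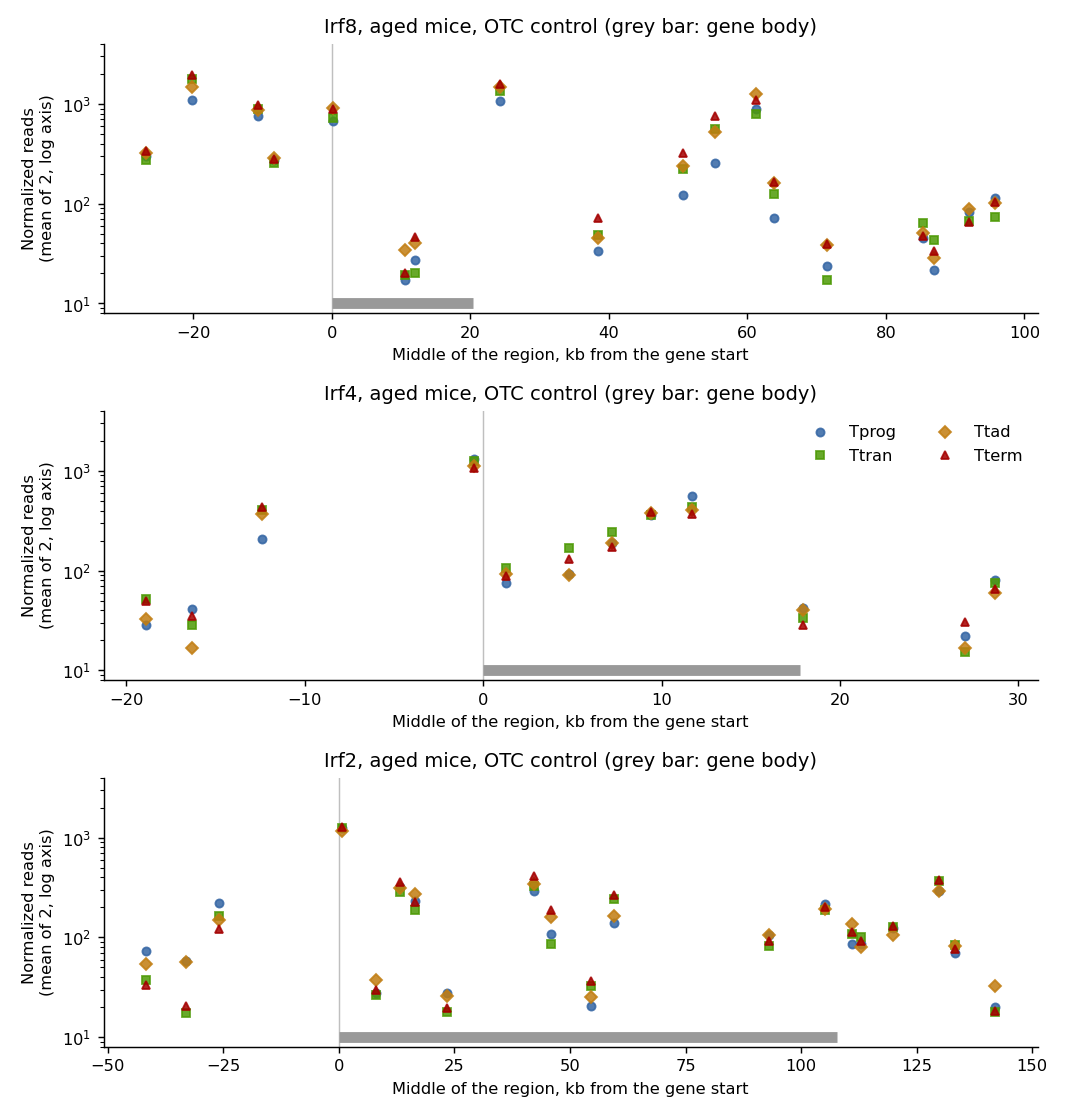
Mean normalized reads (log axis) of every region along Irf8, Irf4 and Irf2 in the 4 aged OTC control groups, against the distance in kb from the gene start; the grey bar is the gene body and each point the mean of 2 libraries. The states lie close together at the 3 starts and apart at Irf8 +50.7 and +55.4 kb and at Irf4 -12.4 kb, where Tprog is lowest.

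Irf8 was less accessible in Tprog than in Tterm, at both ages. Among OTC control cells, 8 of 18 Irf8 regions were lower in aged Tprog than in aged Tterm and 9 of 18 in young, and none was higher (limma, Benjamini-Hochberg adjusted p under 0.05 over all regions). Over all 53868 regions 11.2% were called lower in aged Tprog and 12.6% in young Tprog. The median log2 difference of the 18 regions was -0.48 in aged and -0.62 in young cells, against 0.01 and 0.0072 for all regions. The 2 regions of Cd4, the defining gene of another T cell type, moved the same way, with summed levels of 240.4 to 260.4 in aged OTC Tprog, 372 to 388 in Ttad and 412 to 499 in Tterm. In young OTC cells they were 410.5 to 454 in Tprog and 495 to 572 in Tterm. Tprog was also lower with the Zfp219 guide at both ages and with the Dusp5 guide in aged mice, and the young Dusp5 ranges overlapped. The summed level of the myeloid and dendritic cell genes was also lower in aged OTC Tprog (3517 to 3562) than in Tterm (3781 to 3800). In young OTC cells it was higher in Tprog (4140 to 4182) than in Tterm (3888 to 4033). The CD8 T cell, Pax5 and melanoma sums were higher in OTC Tprog than in OTC Tterm at both ages. For the CD8 T cell genes the aged values were 9259 to 9612 and 8906 to 8932. The part of other cell types in the Irf8 differences was not tested. Sites downstream of Irf8 are known as enhancers in monocytes and dendritic cells, which were not profiled here.

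Among Irf8 regions with a mean above 100 normalized reads, the ratio between groups was highest at +55.4 kb. In aged OTC control cells the libraries gave 243 and 265 normalized reads in Tprog, 593 and 534 in Ttran, 557 and 494 in Ttad, and 772 and 745 in Tterm. Young OTC control libraries gave 178 and 133 in Tprog, 339, 372 and 371 in Ttran, and 514, 444 and 401 in Tterm. Tprog lay below every other state at its own age without overlap. The Tprog minus Tterm difference was -1.57 (SE 0.16, adjusted p = 4.09e-13, limma) in aged and -1.54 (SE 0.15, adjusted p = 1.05e-14) in young cells on the log2(value + 1) scale. The difference between those 2 values was -0.03 (SE 0.22, adjusted p = 0.977, limma). Both calls held in every alternative fit and with each library left out.

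Across all 21 groups Irf8 +55.4 kb was highest in aged OTC Tterm, at 759 ± 19 (SD, n = 2), and next in aged Dusp5 Tterm, at 687 ± 22 (SD, n = 2), neither overlapping the group after it. From aged Zfp219 Tterm at 567 ± 52 and aged OTC Ttran at 563 ± 41 downward most neighbours overlapped. The lowest means were in young Tprog, at 156 ± 31 with the OTC guide, 133 ± 26 with Zfp219 and 127 ± 20 with Dusp5 (SD, n = 2 each). The Tprog minus Tterm difference was also called in every perturbed group by limma, at -1.70 (adjusted p = 2.48e-14) and -1.58 (3.89e-15) with the Zfp219 guide in aged and young mice. With the Dusp5 guide it was -1.97 (1.07e-17) and -2.03 (7e-21).

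Tprog was also the lowest control state at the neighbouring Irf8 +50.7 kb. Aged OTC control libraries gave 134 and 113 in Tprog, 219.6 and 222 in Ttran, 253 and 223 in Ttad, and 289 and 363 in Tterm, and young ones gave 54.4 and 75.3 in Tprog, 131, 143 and 144 in Ttran, and 215, 195 and 170.0 in Tterm. Tprog and Tterm did not overlap at either age, and the aged Ttran and Ttad libraries lay close together. Tprog was lower by limma, with differences of -1.39 (SE 0.23, adjusted p = 6.51e-07) in aged and -1.57 (adjusted p = 1.1e-09) in young cells. Across the 21 groups the means of this region and of Irf8 +55.4 kb had a Pearson's r of 0.96, given as a description, since both come from the same libraries.

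Upstream, Irf8 -20.2 kb followed the same direction with a smaller fold. Its aged OTC control libraries gave 1096 and 1119 in Tprog, 1749 and 1813 in Ttran, 1398 and 1556 in Ttad, and 1854 and 2032 in Tterm. The Tprog libraries were the lowest, and Ttad lay between Tprog and the other states. Tprog minus Tterm was -0.81 (SE 0.07, adjusted p = 3.17e-16, limma) in aged and -0.49 (adjusted p = 1.92e-09) in young cells. At Irf8 +24.3 kb (chr8:120759769-120761594) the aged difference was -0.56 (adjusted p = 1.25e-06), between Tprog libraries at 1087 and 1074 and Tterm libraries at 1508 and 1676. Farther downstream, the weaker Irf8 +63.8 kb (chr8:120799960-120800421) had aged means of 72.5 in Tprog and 166 in Tterm, a difference of -1.18 (adjusted p = 0.000608) that held in every fit. The start region differed by -0.40 (adjusted p = 0.00367) in aged cells, a call that ended without aged OTC Tprog replicate 1 or Tterm replicate 1, with adjusted p up to 0.142.

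In Ttran several Irf8 regions lay between Tprog and Tterm. Of 18 Irf8 regions 5 were higher in aged Ttran than in Tprog and 5 in young Ttran, where 9.99% and 9.07% of all regions were higher. At Irf8 +55.4 kb the aged difference was 1.14 (adjusted p = 4.83e-08, limma). Its aged Ttran libraries (593 and 534) also lay below the Tterm libraries (772 and 745), a difference of -0.43 that missed the threshold (adjusted p = 0.135, limma). Over the 18 regions the aged median was 0.23 for Ttran minus Tprog and -0.30 for Ttran minus Tterm, and in the latter 7 had an unadjusted p under 0.05. Against Tterm only Irf8 +61.2 kb (chr8:120796247-120798925) was called in aged Ttran, where 3.22% of all regions were called in either direction. At +61.2 kb aged Ttran was not intermediate, since its mean lay below that of Tprog as well, with overlapping libraries. Aged Ttran libraries there gave 863 and 713 and Tterm libraries 1112 and 1104, a difference of -0.50 (adjusted p = 0.000921, limma). That call ended without aged OTC Ttran replicate 2 (adjusted p = 0.0927). In young Ttran, Irf8 +61.2 kb was lower than in Tterm at -0.39 (adjusted p = 0.000463) and the start region at -0.26 (adjusted p = 0.0444). The start region call ended without any Tterm library or Ttran replicate 2 or 3 of young OTC cells, with adjusted p up to 0.187, and with quantile normalization or edgeR.

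Ttad cells, negative for both sorting markers, had more open Irf8 chromatin than Tprog cells. In aged OTC control cells 7 of 18 Irf8 regions were higher in Ttad than in Tprog and none lower, beside 3.82% of all regions higher. Irf8 +55.4 kb was higher by 1.04 (SE 0.16, adjusted p = 4.15e-06, limma), and the 2 Ttad libraries (557 and 494) did not overlap the Tprog libraries (243 and 265). Irf8 +61.2 kb was at its highest in Ttad, with 1268 and 1246 normalized reads against 818 and 971 in Tprog, 863 and 713 in Ttran, and 1112 and 1104 in Tterm. There Ttad exceeded Ttran by 0.68 (adjusted p = 1.05e-06) and Tprog by 0.50 (adjusted p = 0.000407), and its difference from Tterm was 0.18 (adjusted p = 0.314, limma). The call against Tprog ended without aged OTC Tprog replicate 1 (adjusted p = 0.0825).

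Against Tterm, 2 Irf8 regions were lower in Ttad, where 4.26% of all regions were lower. Irf8 -20.2 kb differed by -0.40 (adjusted p = 4.84e-05, limma), and this call held in every fit. At Irf8 +55.4 kb the difference of -0.53 (adjusted p = 0.0296) ended when any 1 of the 4 libraries was left out, with adjusted p up to 0.21, and with quantile normalization (0.058). Summed over its 18 regions, Irf8 was highest in aged OTC Tterm at 8821 ± 205 (SD, n = 2) and next in aged OTC Ttad at 7967 ± 32 (SD, n = 2). Neither range overlapped that of the next group. The lowest sum was 5094 ± 85 (SD, n = 2) in young Zfp219 Tprog.

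Irf8 was more accessible in aged than in young OTC control cells. Averaged over Tprog, Ttran and Tterm, 8 of 18 Irf8 regions were higher in aged cells and 2 lower, beside 17.3% of all regions higher and 19.1% lower. At Irf8 +61.2 kb aged libraries had a lowest, median and highest value of 713, 917 and 1112, and young libraries of 517, 623 and 808. Within each state the ages did not overlap, and the difference was 0.54 (SE 0.05, adjusted p = 4.38e-14, limma). Irf8 +55.4 kb was higher in aged cells by 0.70 (SE 0.09, adjusted p = 2.28e-10), with means of 525 and 344, and Irf8 +50.7 kb by 0.78 (adjusted p = 1.34e-07). Irf8 -8.3 kb (chr8:120727769-120728418) was higher by 0.55 (adjusted p = 8.75e-06), with means of 269 and 186 in aged and young libraries. These age differences are those of control cells. The levels with guides that follow are of regions where the effect of that guide differed with age by limma. Irf8 +55.4 kb was not called for such a difference with either guide. Over the same states, aged and young library means at Irf8 +50.7 kb were 155 and 151 with the Zfp219 guide. With the Dusp5 guide they were 172 and 180, and at Irf8 -8.3 kb 204 and 202. At Irf8 +61.2 kb they were 758 and 667 with Zfp219, and 821 and 775 with Dusp5. The ages were not tested against each other within a guide.

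The most accessible Irf8 region was not higher in aged control cells. At Irf8 -20.2 kb aged control cells were lower by limma, with a difference of -0.11 (adjusted p = 0.0154). That call ended without aged OTC Tterm replicate 1 or young OTC Tprog replicate 1, with adjusted p up to 0.114. The summed level of the myeloid and dendritic cell genes was lower in aged than in young control cells, at 3517 to 3562 against 4140 to 4182 in Tprog. In Tterm it was 3781 to 3800 against 3888 to 4033. The part of these cells in the Irf8 differences was not tested.

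**Figure D2:**
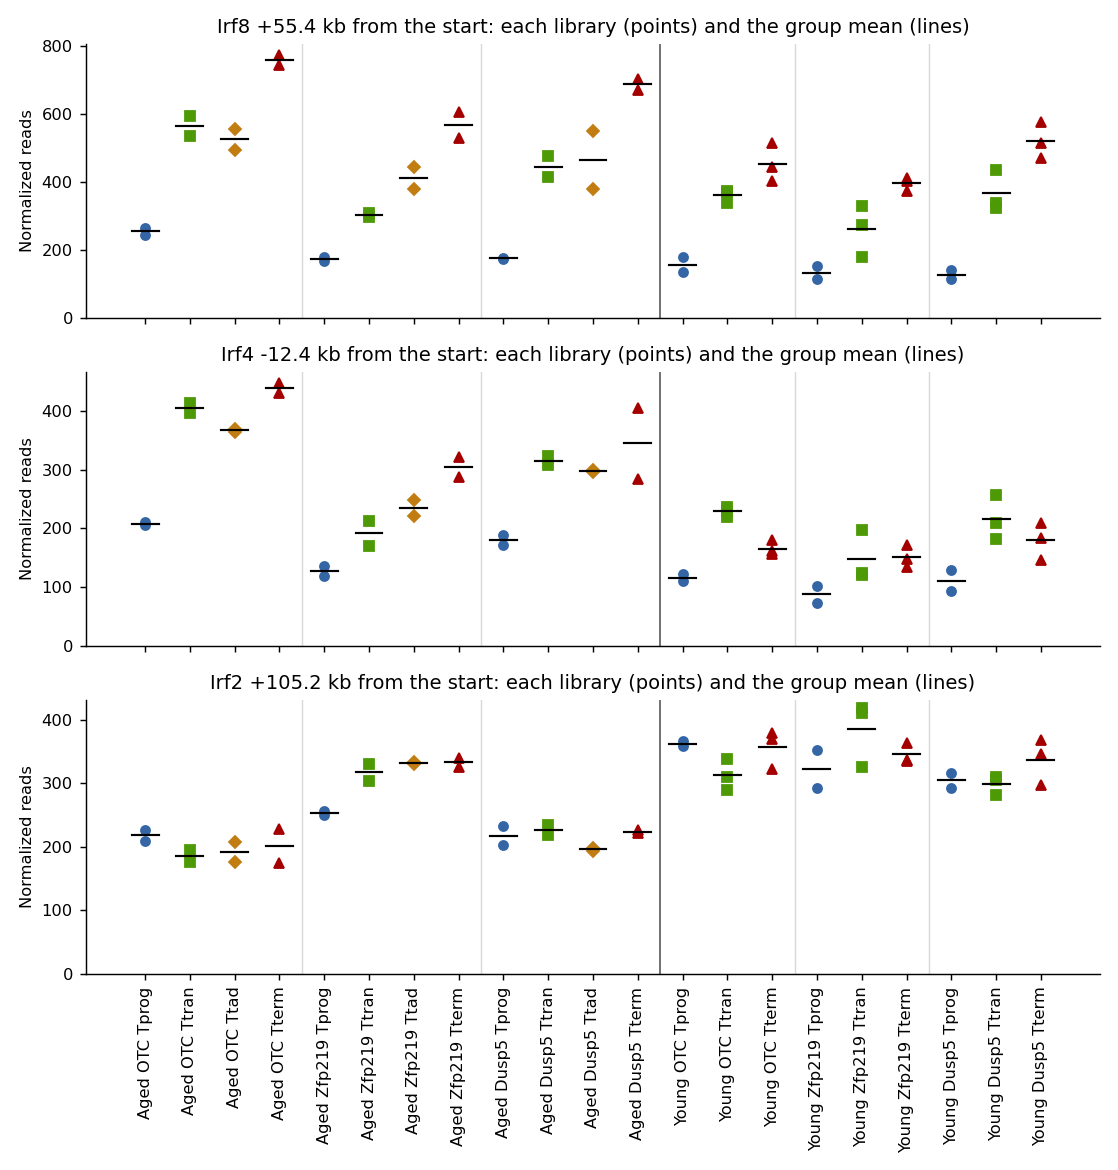
Normalized reads of each library (points) and group means (lines) at Irf8 +55.4 kb, Irf4 -12.4 kb and Irf2 +105.2 kb in the 21 groups. Tprog is lowest within each set of states at Irf8 +55.4 kb. At Irf4 -12.4 kb aged control libraries stand above young ones of the same state. At Irf2 +105.2 kb aged Zfp219 libraries stand above aged control libraries.

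In aged mice the Zfp219 guide was accompanied by less accessible Irf8 chromatin, mostly downstream of the gene. Averaged over the 4 aged states, 5 of 18 Irf8 regions were lower than in OTC control cells and none higher, beside 13.7% of all regions lower. At Irf8 +55.4 kb the Zfp219 libraries gave 168 and 180 in Tprog, 296 and 307 in Ttran, 443 and 379 in Ttad, and 530.0 and 604 in Tterm. Each pair lay below both control libraries of its state. The difference was -0.56 (SE 0.08, adjusted p = 5.77e-08, limma), with library means of 363 and 525. Irf8 +24.3 kb fell by 0.37 (SE 0.05, adjusted p = 3.87e-10) and Irf8 +61.2 kb by 0.34 (adjusted p = 3.89e-08). Irf8 +50.7 kb fell by 0.53 (adjusted p = 0.000134), and all 5 calls, Irf8 -8.3 kb included, held in every fit.

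Within single aged states the largest called Irf8 difference with the Zfp219 guide was in Ttran, where Irf8 +55.4 kb differed by -0.90 (adjusted p = 2.54e-05, limma). In that state 6 of the 50 regions were called, against 14.2% of all regions, and in aged Tprog, Tterm and Ttad 3, 3 and 5, against 2.56%, 3.57% and 8.23%. In young mice 3 of 18 Irf8 regions were lower with the Zfp219 guide and none higher, beside 5.15% of all regions lower. Irf8 -20.2 kb was the clearest, at a mean of 1460.1 against 1755 in control libraries, without overlap within any state. It differed by -0.26 (SE 0.04, adjusted p = 1.62e-07), and in aged cells the same region differed by 0.04 (adjusted p = 0.511, limma). Irf8 +55.4 kb differed by -0.31 (adjusted p = 0.0105) in young cells, a call that ended without young OTC Tprog replicate 1, young Zfp219 Tprog replicate 1 or young Zfp219 Ttran replicate 3, with adjusted p up to 0.107.

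The Dusp5 guide was compared with the same OTC control libraries. Averaged over the 4 aged states 6 of 18 Irf8 regions were lower with it and none higher, beside 7.87% of all regions lower. Irf8 -10.7 kb (chr8:120724846-120726480) had a lowest, median and highest value of 666, 707 and 815 with the Dusp5 guide and of 710, 879 and 1041 in control libraries. Within each state the groups did not overlap, and the difference was -0.28 (SE 0.05, adjusted p = 2.72e-06, limma). Irf8 +55.4 kb differed by -0.31 (adjusted p = 0.00605), with 173 and 177 in Dusp5 Tprog libraries. That call ended without aged Dusp5 Ttad replicate 1 (adjusted p = 0.0513) and in the fit with a single value per group (adjusted p = 0.0579).

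In young mice the 3 called Irf8 regions were higher with the Dusp5 guide, beside 1.80% of all regions higher. None of these calls held in every fit, and 2 were lost without some library. By edgeR 3 Irf8 regions were higher and 1 was lower. Irf8 +61.2 kb rose by 0.26 (SE 0.05, adjusted p = 0.00034, limma), with a mean of 775 against 656, and the groups did not overlap within any state; with a single value per group the adjusted p was 0.063. It fell by 0.17 (adjusted p = 0.0117) in aged cells, a call that ended without aged OTC Tprog replicate 2 or Ttran replicate 1, with adjusted p up to 0.0664, and with a single value per group (0.244). By single states the aged Dusp5 comparison called 0, 2, 2 and 0 of the 50 regions in Tprog, Ttran, Tterm and Ttad, where 0.830%, 3.80%, 4.11% and 2.88% of all regions were called. For the 2 states with 0 calls, 3 and 5 regions had an unadjusted limma p under 0.05 and edgeR also called 0.

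At Irf4 the region outside the gene body with the most reads, -12.4 kb, differed by state, age and guide. At Irf4 -12.4 kb aged OTC control libraries gave 211 and 205 normalized reads in Tprog, 397 and 413 in Ttran, 364 and 369.6 in Ttad, and 430.4 and 447 in Tterm. Young OTC control libraries gave 122 and 110 in Tprog, 237, 219.7 and 230.1 in Ttran, and 161, 156 and 180.0 in Tterm. Aged libraries exceeded young libraries in every state without overlap, and the age difference was 1.02 (SE 0.11, adjusted p = 8.98e-14, limma) with means of 351 and 177. In that comparison 3 of 12 Irf4 regions were higher in aged cells and 1 lower, beside 17.3% and 19.1% of all regions.

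In aged control cells Irf4 -12.4 kb was lower in Tprog than in Tterm by limma, with a difference of -1.07 (SE 0.20, adjusted p = 8.56e-06). Ttran exceeded Tprog by 0.96 (adjusted p = 0.000107) and Ttad exceeded it by 0.82 (adjusted p = 0.00334). Its young Tprog minus Tterm difference was -0.51 (adjusted p = 0.0232, limma). That call ended without young OTC Tprog replicate 1 or 2 or Tterm replicate 3, with adjusted p up to 0.186. Between young Ttran and Tterm 5 of the 50 regions were called, beside 8.38% of all regions, and the 5 fell to between 1 and 3 when any 1 of the 6 libraries was left out. Young Ttran lay above young Tterm by 0.47 (adjusted p = 0.0495), a call that ended when any 1 of the 6 libraries compared was left out, with adjusted p up to 0.172.

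In the perturbed groups Tprog was lower than Tterm as well, by limma at -1.25 (adjusted p = 3.02e-07) and -0.79 (0.000274) with the Zfp219 guide in aged and young mice, and at -0.91 (0.000154) and -0.69 (0.00141) with the Dusp5 guide. Across the 21 groups aged OTC Tterm at 439 ± 12 and aged OTC Ttran at 405 ± 11 (SD, n = 2 each) had the highest means. Each was clear of the group next by mean, but aged Dusp5 Tterm replicate 1, at 404, fell within the range of aged OTC Ttran. Young Zfp219 Tprog was lowest, at a mean of 87.6.

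With the Zfp219 guide Irf4 -12.4 kb fell in aged cells. The aged Zfp219 libraries gave 119 and 135 in Tprog, 212 and 171 in Ttran, 248 and 221 in Ttad, and 288 and 322 in Tterm. All 8 lay below the control libraries of their state, with a difference of -0.74 (SE 0.10, adjusted p = 1.64e-09, limma). In aged Ttran alone the difference was -1.09 (adjusted p = 1.77e-05), and the Zfp219 mean of 191 ± 30 (SD, n = 2) set against 405 ± 11 in control libraries. In young mice the difference was -0.41 (adjusted p = 0.00375), with means of 134 and 177, and the call ended without young Zfp219 Tprog replicate 2 (adjusted p = 0.0521) and with a single value per group (0.0813). Against the same aged control libraries the Dusp5 guide gave -0.31 (adjusted p = 0.0225), which ended without aged Dusp5 Tprog replicate 1 or Tterm replicate 2, with adjusted p up to 0.11, and with quantile normalization or a single value per group.

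The Irf4 start region and a region inside the gene went the other way from the distal one between states. At Irf4 -0.5 kb aged OTC libraries gave 1332 and 1277 in Tprog and 1038 and 1084 in Tterm, and young ones 1275 and 1331 in Tprog and 1108, 1066 and 1080.4 in Tterm. Tprog was higher without overlap at both ages, with differences of 0.30 (adjusted p = 0.00544) and 0.26 (adjusted p = 0.00539, limma). The aged call ended without aged OTC Tprog replicate 1 or Tterm replicate 1 (adjusted p up to 0.0752), and the young one without young OTC Tprog replicate 2 (adjusted p = 0.0862). At Irf4 +11.7 kb (chr13:30760203-30761602, inside the gene body) aged Tprog had 539 and 574 and aged Tterm 352 and 390.4, a difference of 0.58 (adjusted p = 0.00105) that held in every fit. Its young OTC libraries gave 449.9 and 489.4 in Tprog and 315.4, 364.8 and 349.3 in Tterm. Over the 21 groups its means had a Pearson's r of 0.84 with the start region and of -0.36 with Irf4 -12.4 kb, as a description of values from shared libraries. The Dusp5 guide in aged cells gave -0.34 (adjusted p = 0.000304, limma) at Irf4 +11.7 kb.

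At the 3′ end of the gene, Irf4 +17.9 kb (chr13:30766675-30767638) was lower in aged cells. Its aged OTC libraries had a lowest, median and highest value of 27.2, 30.7 and 53.2, and the young ones 48.7, 64.5 and 84.4. Within each state the ages did not overlap, and the difference was -0.92 (SE 0.21, adjusted p = 0.000194, limma). Irf4 in all had 3 of 12 regions called between Tprog and Tterm at each age, a share of 25% beside 20.1% (aged) and 26.5% (young) of all regions. In aged cells 2 of these calls held in every fit, and in young cells all 3 were lost without some library. Summed over its 12 regions, Irf4 was highest in aged OTC Ttran at 3174 ± 97 (SD, n = 2), clear of the next group, and lowest in young Dusp5 Tterm at 2305 ± 139 (SD, n = 3).

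Further Irf4 regions were called in some comparisons. Irf4 -18.9 kb (chr13:30730216-30730471) averaged 22.1 normalized reads, with a lowest, median and highest value of 27.2, 37.1 and 66.2 in aged and 5.99, 14.5 and 33.6 in young control libraries. The age difference was 1.59 (adjusted p = 0.00105, limma), and within each state the ages did not overlap. With the Zfp219 guide this region gave -1.21 (adjusted p = 0.0106, limma) in aged cells. In young cells it gave -1.51 (adjusted p = 0.00528), a call that ended without young Zfp219 Tprog replicate 2. That library and young Zfp219 Ttran replicate 3 held 0 normalized reads there, which weighs heavily on a log2 difference. Inside the gene, Irf4 +4.8 kb (chr13:30753785-30754218) was highest in aged OTC Ttran among the aged control states, at 166 and 172 against 104 and 79.8 in Tprog. It exceeded Tprog there by 0.88 (adjusted p = 0.00831), a call that ended without aged OTC Tprog replicate 2 or Ttran replicate 2, with adjusted p up to 0.15. Irf4 +9.4 kb (chr13:30757951-30759268) was higher in aged cells by 0.29 (adjusted p = 0.0032) and lower with the Zfp219 guide in aged mice by limma at -0.26 (adjusted p = 0.00691). Both calls ended without aged OTC Ttran replicate 1, at adjusted p of 0.0674 and 0.0652.

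**Figure D3:**
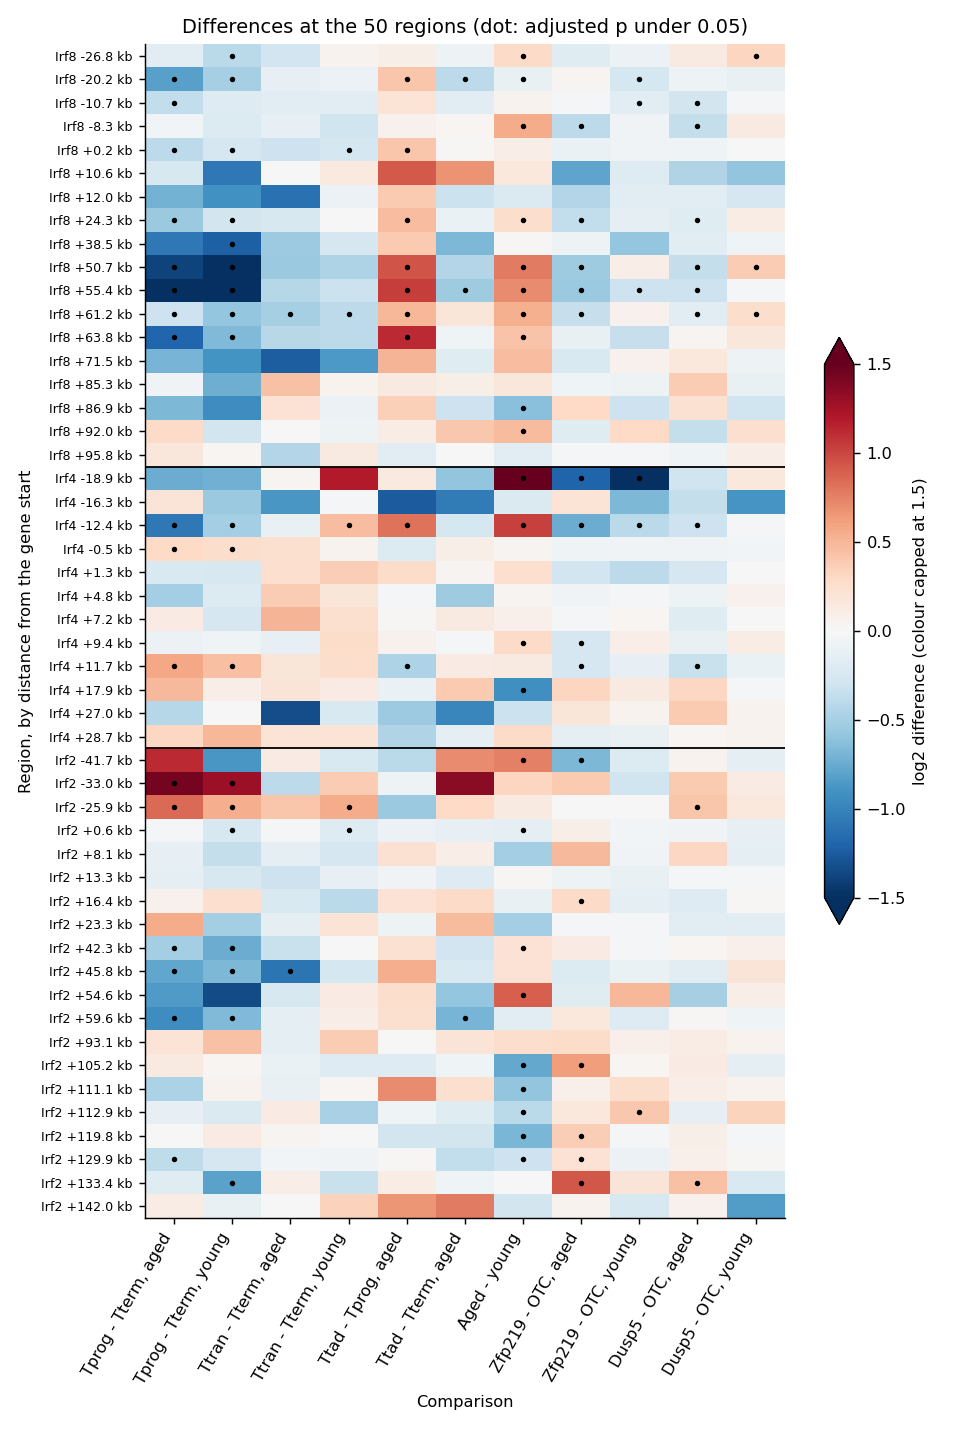
Log2 differences of the 50 regions (vertical axis, ordered by distance from each gene's start) in 11 comparisons (horizontal axis); colour gives the difference, capped at 1.5, and a dot marks an adjusted p under 0.05 by limma. The dotted Irf8 rows are blue (lower) for Tprog minus Tterm and red (higher) for Ttad minus Tprog, and Irf2 +105.2 kb is blue for age and red for the Zfp219 guide in aged mice.

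At Irf2 the clearest differences by age and by guide lay toward and beyond the 3′ end of the gene. Of 20 Irf2 regions 6 were lower and 3 higher in aged than in young OTC control cells, beside 19.1% and 17.3% of all regions. The clearest was Irf2 +105.2 kb (chr8:46844145-46845663), inside the gene body. Aged OTC libraries gave 209 and 227 in Tprog, 196 and 177 in Ttran, and 228 and 174 in Tterm. Young ones gave 366 and 359 in Tprog, 290.1, 310 and 338 in Ttran, and 323, 379 and 369 in Tterm. Every aged library lay below every young one, and the difference was -0.77 (SE 0.08, adjusted p = 3.74e-13, limma). Downstream of the gene, Irf2 +119.8 kb (chr8:46859038-46860152) differed by -0.69 (adjusted p = 5.2e-06) and Irf2 +129.9 kb by -0.30 (adjusted p = 0.000561). These 3 calls held in every fit.

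With the Zfp219 guide in aged mice 5 of 20 Irf2 regions were higher and 1 lower, beside 12.1% of all regions higher. At Irf2 +105.2 kb the aged Zfp219 libraries gave 256 and 251 in Tprog, 331 and 304 in Ttran, 334 and 331 in Ttad, and 340.4 and 326 in Tterm. All lay above the aged control libraries of their state, whose 8 values ran from 174 to 228. The difference was 0.63 (SE 0.08, adjusted p = 8.87e-11, limma). In young mice the same guide gave 0.03 (SE 0.08, adjusted p = 0.899), with means of 355 and 342. Aged Dusp5 libraries, with a mean of 216 against the same aged controls at 199, differed by 0.12 (adjusted p = 0.324).

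Irf2 +133.4 kb (chr8:46872842-46873390), outside the gene body, also rose with the Zfp219 guide in aged mice. Zfp219 libraries gave 138 and 150.3 in Tprog, 138 and 156 in Ttran, 159 and 120.2 in Ttad, and 149 and 139 in Tterm. The control libraries ran from 45.3 to 118 and did not overlap them within any state. The difference was 0.93 (SE 0.16, adjusted p = 1.43e-06, limma), and it held in every fit. Across the 21 groups Irf2 +105.2 and +119.8 kb had a Pearson's r of 0.91, as a description.

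Between states Irf2 regions went both ways. Of 20 regions 2 were higher and 4 lower in aged Tprog than in Tterm, and 2 were higher and 5 lower in young, beside 20.1% and 26.5% of all regions called in either direction. At Irf2 +59.6 kb (chr8:46798736-46799981, inside the gene body) aged OTC libraries gave 155 and 124 in Tprog, 224 and 260 in Ttran, 161 and 166 in Ttad, and 285 and 247 in Tterm. Tprog and Ttad were low and Ttran and Tterm high, and Tprog minus Tterm was -0.93 (adjusted p = 2.52e-05, limma). Upstream, Irf2 -25.9 kb (chr8:46712860-46714863) went the other way, with 223 and 216 in aged Tprog and 114 and 129 in Tterm, a difference of 0.85 (adjusted p = 0.000917). These aged calls held in every fit. In young cells the differences were -0.67 (adjusted p = 0.00084) and 0.55 (adjusted p = 0.0194, limma); the first ended without young OTC Tprog replicate 1 (adjusted p = 0.0746) and the second without young OTC Tprog replicate 2 or Tterm replicate 3, with adjusted p up to 0.313.

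Inside the gene, Irf2 +45.8 kb (chr8:46785050-46786074) was lower in aged Ttran than in Tterm by limma, at -1.10 (adjusted p = 0.00652). That call ended without aged OTC Tterm replicate 1, Tterm replicate 2 or Ttran replicate 1, with adjusted p up to 0.0655. Upstream, the weak Irf2 -33.0 kb (chr8:46706469-46707032) was higher in aged Tprog than in Tterm by 1.43 (adjusted p = 0.0312), a call that ended without any 1 of the 4 libraries (adjusted p up to 0.228).

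The summed Irf2 level ran from 3635 ± 14 (SD, n = 2) in aged Dusp5 Tprog to 4618 ± 77 (SD, n = 3) in young OTC Tterm, whose range overlapped the next group. With the Dusp5 guide in aged cells Irf2 -25.9 kb was higher by 0.41 (adjusted p = 0.00235, limma), with means of 215 and 163 and no overlap within a state.

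Over the 50 regions together the calls were set against those over all regions. Between Tprog and Tterm 17 were called in aged and 19 in young control cells, beside 20.1% and 26.5% of all regions. By age 23 were called, beside 36.5%. Zfp219 gave 15 calls in aged and 6 in young cells, beside 25.8% and 7.07%, and Dusp5 gave 10 and 3, beside 12.2% and 3.82%. Ttad differed from Tterm at 3, from Tprog at 9 and from Ttran at 7 regions, beside 7.28%, 6.55% and 7.74%. No region was called for a change of the Tprog minus Tterm difference with age by limma (5 at an unadjusted p under 0.05, and 2 by edgeR), where 2.32% of all regions were called. Leaving out 1 library moved several of these counts by more than 1.5 times. The aged Tprog and Tterm count of 17 fell to 11 without aged OTC Tterm replicate 1, and the young count of 19 to 9 without young OTC Tprog replicate 2 and to 12 without young OTC Tterm replicate 3. The count for Ttad and Tterm fell from 3 to 1 without aged OTC Ttad replicate 1 or Tterm replicate 1, and the young Dusp5 count rose from 3 to 5 without young Dusp5 Tprog replicate 1. The count for Ttad and Ttran fell from 7 to between 1 and 3 without any 1 of the 4 libraries.

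The effect of each guide was then compared between ages over the 3 shared states. The Zfp219 effect differed with age at 8 of the 50 regions, beside 9.11% of all regions, and the Dusp5 effect at 5, beside 4.0%. For Zfp219, Irf2 +105.2 kb differed most clearly, with an effect of 0.57 in aged and 0.03 in young cells and a difference of 0.55 (SE 0.12, adjusted p = 0.000598, limma). Irf8 -20.2 kb differed in the other sense, with -0.26 in young cells and -0.0018 in aged (difference 0.26, adjusted p = 0.000696). For Dusp5 all 5 regions belonged to Irf8. At Irf8 +61.2 kb the effect was -0.18 in aged and 0.26 in young cells, a difference of -0.44 (SE 0.08, adjusted p = 4.5e-05). With a single value per group only the Dusp5 difference at Irf8 +50.7 kb was still called. The count of 8 for Zfp219 fell to 5 without aged OTC Tterm replicate 2, aged Zfp219 Tprog replicate 2 or aged Zfp219 Tterm replicate 1.

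**Figure D4:**
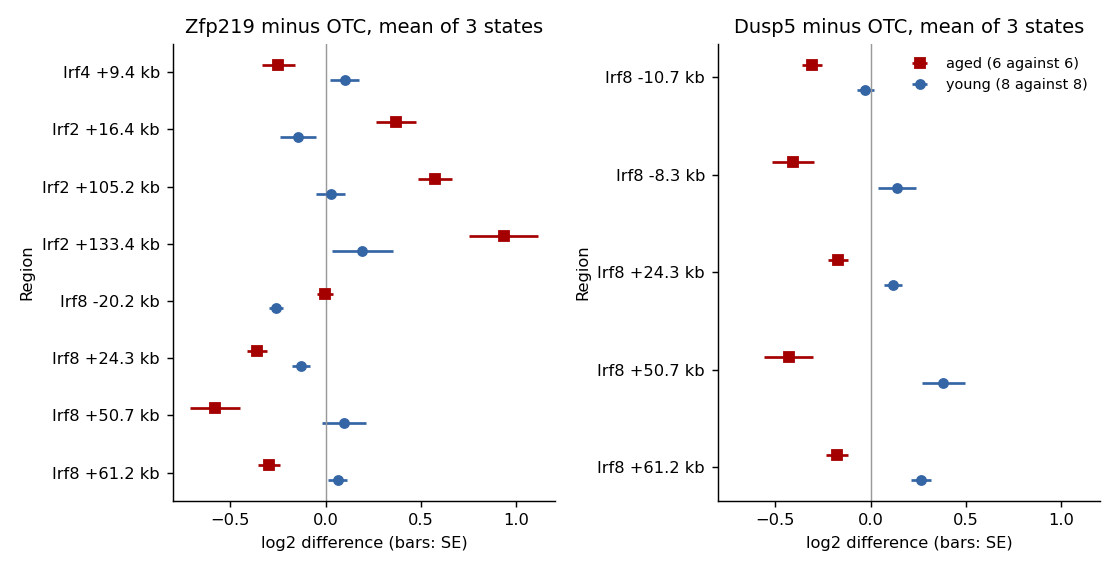
Log2 difference (horizontal axis, bars are SE) of the Zfp219 and Dusp5 guides from OTC control over Tprog, Ttran and Tterm in aged (6 against 6 libraries) and young (8 against 8) mice. The vertical axis gives the 13 pairs of region and guide whose effect differed with age by limma. Some regions appear for both guides. At Irf2 +105.2 kb the aged effect is 0.57 and the young 0.03, and at Irf8 +61.2 kb the Dusp5 effect is -0.18 in aged and 0.26 in young mice.

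The other genes of the family had 15 regions, 8 of them at Irf1. Between Tprog and Tterm none was higher and 4 were lower in aged cells, and 1 was higher and 3 lower in young, beside 20.1% and 26.5% of all regions called. By age 1 was higher and 7 lower in aged control cells, with a median difference of -0.21 against 0.0023 for all regions, of which 17.3% were higher and 19.1% lower. Examples were chosen after their values were seen. An Irf1 region 7053 bp from the gene body (chr11:53785427-53787184) had means of 190.3 and 390.2 in aged and young control cells, a difference of -1.03 (adjusted p = 1.14e-14, limma). Irf1 encodes an activator of interferon-responsive genes. With the Zfp219 guide in aged mice 4 of the 15 were higher and none lower, and with the Dusp5 guide none was higher and 6 were lower, beside 12.1% of all regions higher with Zfp219 and 7.87% lower with Dusp5.

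Genes for DNA-binding partners of these factors (Batf, Batf3, Jun, Junb, Jund, Spi1, Spib and Ets1, with none at Batf2) had 62 regions. Of these, 30 were at Ets1. With the Zfp219 guide in aged mice 2 were higher and 25 lower, beside 12.1% and 13.7% of all regions, with a median of -0.14 against 0.0064. In young mice none was higher and 6 were lower, beside 5.15% of all regions lower. A region inside Batf3, which encodes an AP-1 factor that pairs with JUN proteins, is an example chosen after its values were seen. At chr1:191099893-191100864 its mean was 229 with the Zfp219 guide and 451 in aged control cells, a difference of -0.96 (adjusted p = 3.44e-18, limma). The same region was higher in aged than in young control cells by 0.81 (adjusted p = 2.24e-13). By age 18 of the 62 were higher and 11 lower, beside 17.3% and 19.1% of all regions. Genes for IRF2-binding proteins (Irf2bp1, Irf2bp2 and Irf2bpl) had 26 regions, of which 6 were higher and 3 lower with the Zfp219 guide in aged mice, beside 12.1% and 13.7% of all regions. By age 2 of the 26 were higher and 7 lower, beside 17.3% and 19.1%.

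The mean profile of each gene over the 21 groups was compared with that of other genes with at least 3 regions. The 5 most like Irf8 were Bcr (Pearson's r 0.95), Coa8 (0.95), Extl3 (0.92), Adamts14 (0.91) and Cdh17 (0.90), where the 99th percentile over 6378 genes was 0.82. For Irf4 they were Gm5544 (0.84), Prrc2b (0.82), Batf3 (0.82), Akap13 (0.82) and Pik3r5 (0.80), with a 99th percentile of 0.69. For Irf2 they were Itgae (0.77), Cep97 (0.73), Adarb1 (0.72), Urgcp (0.71) and Kcnh2 (0.69), with a 99th percentile of 0.57. Between the members r was 0.07 for Irf2 and Irf4, 0.29 for Irf2 and Irf8, and 0.35 for Irf4 and Irf8. These values describe groups that share libraries and scaling.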

How the data were processed

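ATAC-seq gave 48 libraries, with groups and replicate numbers taken from the sample titles. The deposited signal is the authors' normalized read coverage per peak: within each library the values are whole multiples of a single step, and 100% were whole reads within 0.01 read, a tolerance widened in proportion above 1000 reads. The submitters' processing notes name, without role or order, Bowtie2 2.2.9, Picard 2.8.0, MACS2 2.1.1, SAMtools 1.3.1, DESeq2 1.28.1 and mm10; a shift for Tn5 and the peak calling setup are not given in the sources used here.

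The test was limma 3.58.1 (R 4.3.3; lmFit, eBayes with a trend) on log2(value + 1), with all 48 libraries, a mean for each of 21 groups and states weighted equally. Adjusted p is Benjamini-Hochberg over 53868 regions, called under 0.05. Fold changes on this scale tend to understate weak regions, but libraries at 0 can enlarge them. The alternatives tried were quantile normalization, edgeR 4.0.16 quasi-likelihood on recovered reads, compared groups only, array weights, a replicate block, a pseudocount of 8, dropping the weakest 25% of regions, a single value per group and leaving out each library.

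Text regions were each gene's most accessible region, its start region and, for each comparison, the called region with the largest non-overlapping difference; Irf8 -8.3 and +24.3 kb, Irf4 +11.7 and +17.9 kb and Irf2 +119.8 and +129.9 kb were chosen after their values were seen. Members and gene lists were chosen with earlier results of these data known. Replicates of a group differed by 2.79 to 4.53 times counting noise (chi-square per degree of freedom, 33 pairs). Promoter sequences are from RefSeq for GRCm38.p6; exons, introns and UTRs were not assigned here.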

Additional observations from a re-analysis of the deposited data

Results flagged for a closer look

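For 13 pairs of region and guide, the effect of the guide differed between aged and young mice, and some regions appear for both guides. The effect was averaged over Tprog, Ttran and Tterm, with 6 against 6 libraries in aged mice and 8 against 8 in young. The limma test was of the difference in effect (log2, aged minus young, Benjamini-Hochberg adjusted over all regions). No explanation was weighed.

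For Zfp219 the difference was 0.55 at Irf2 +105.2 kb (adjusted p = 0.000598), 0.51 at Irf2 +16.4 kb (0.0106), 0.74 at Irf2 +133.4 kb (0.0345), -0.35 at Irf4 +9.4 kb (0.0427) and 0.26 at Irf8 -20.2 kb (0.000696). It was -0.23 at Irf8 +24.3 kb (0.0272), -0.68 at Irf8 +50.7 kb (0.00513) and -0.36 at Irf8 +61.2 kb (0.000648). At Irf8 +50.7 kb the effect was -0.58 in aged and 0.10 in young cells, and at Irf2 +16.4 kb 0.37 and -0.15.

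For Dusp5 the difference was -0.28 at Irf8 -10.7 kb (adjusted p = 0.00731), -0.55 at Irf8 -8.3 kb (0.0162), -0.29 at Irf8 +24.3 kb (0.00682), -0.81 at Irf8 +50.7 kb (0.00118) and -0.44 at Irf8 +61.2 kb (4.5e-05). At Irf8 +50.7 kb the effect was -0.43 in aged and 0.38 in young cells.

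With a single value per group 12 of the 13 were no longer called, with adjusted p from 0.0503 to 0.241, and Irf8 +50.7 kb for Dusp5 was. Leaving out 1 library ended the call in 14 of 28 fits at Irf4 +9.4 kb (adjusted p up to 0.17), 10 at Irf2 +133.4 kb (up to 0.0976), 7 at Irf8 +24.3 kb for Zfp219 (up to 0.0965), 2 at Irf8 -8.3 kb (up to 0.0763) and 1 at Irf8 +24.3 kb for Dusp5 (without young Dusp5 Tprog replicate 1, 0.059).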

How the results depend on the processing

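Over 17 comparisons the 50 regions gave 153 calls; 58 held in every fit, 84 were lost without some library, and no sign changed in any fit. Most counts were within 1.5 times the reported ones. Without the weakest 25% of regions the young Dusp5 count went from 3 to 5 and the age difference in Tprog minus Tterm from 0 to 1. Quantile normalization gave 4 for Ttad minus Ttran (reported 7), 6 for aged Dusp5 (10) and 1 for that age difference. edgeR gave 6 for young Dusp5 and 2 for it; array weights 11 for young Ttran minus Tterm (5), 1 for Ttad minus Ttran, 6 and 2; and the compared groups alone 10, 2, 6 and 2. A single value per group, which leaves few degrees of freedom, gave 13 for age (23), 9 and 2 for Zfp219 in aged and young (15 and 6), 0 for its age difference (8), and for Dusp5 4, 0 and 1 (10, 3 and 5). The cause was not tested.

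Leaving out 1 library gave 11 to 13 for Tprog minus Tterm in aged and 9 to 16 in young cells, 4 to 9 and 6 to 11 for Ttran minus Tprog, and 1 to 3 for Ttran minus Tterm at each age. It gave 1 to 2, 6 to 7 and 1 to 3 for Ttad against Tterm, Tprog and Ttran, 18 to 23 for age, 12 to 17 and 4 to 7 for Zfp219, 7 to 11 and 2 to 5 for Dusp5, 5 to 9 and 4 to 6 for their age differences, and 0 to 1 for the age difference in Tprog minus Tterm. A lone remaining library was assumed to vary like the other groups. Same-numbered libraries shared little deviation from their group means, with correlations from -0.0184 to 0.0170. These values cannot tell whether such libraries came from the same mice, since the make-up of the pools was not given. With the replicate block the count by age was 17, and the Irf4 -12.4 kb call between young Ttran and Tterm ended (adjusted p = 0.0523, limma). Depth limits the weakest regions: 2 of the 50 had under 3 reads in some library.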

Other observations

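The distance limit lay far from most members. The farthest Irf8 region was 75079 bp from the gene body with a mean of 103 normalized reads. The nearest region assigned to no gene was at 110083 bp with a mean of 25.7. The farthest Irf2 region was at 41444 bp (mean 34.5) and the farthest Irf4 region at 18762 bp (mean 22.1). For these genes the nearest regions assigned to no gene were at 3099436 and 340453 bp. Regions assigned to neighbouring genes were left out of these distances.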
